A study of Mus musculus with 17 samples.

Results

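The Dlk1-Dio3 cluster is an imprinted domain of mouse chromosome 12, and 9 of its genes were examined among the 34682 genes of the count table. Of these, 6 are RNAs of the maternal copy: the long noncoding RNAs Meg3, Rian and Mirg, and the small nucleolar RNA (snoRNA) entries AF357425_gene, AF357359 and DQ267102. The other 3, Dlk1, Rtl1 and Dio3, are protein-coding genes of the paternal copy. The genes were chosen by measured values: the maternal RNAs had stood far lower in the 4 Dup-LΔBor libraries than in wild type (WT) while the paternal genes had not. All 9 passed the filter on low counts and were among the 17655 genes tested. Because that contrast chose them, it is described below with no test of these genes.

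The cluster holds genes that are read from only 1 parental copy. A methylation mark between Dlk1 and Meg3, set on the paternal chromosome, keeps the noncoding RNAs silent there, and on the maternal chromosome, where it is unmethylated, Meg3 and the RNAs behind it are transcribed while the coding genes are not. Meg3, Rian and Mirg lie in the same orientation, and their introns carry many snoRNAs and microRNAs (miRNAs). Loss of the unmethylated maternal state is known to silence the noncoding RNAs and to switch the maternal chromosome to the paternal pattern.

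The libraries were poly(A) RNA sequencing of E12.5 mouse limb buds. WT had 4 libraries, Dup-C 2, Dup-L 2, Dup-LΔBor 4, ΔBor heterozygotes (het) 2 and a ΔBor homozygote (hom) 1. Both duplications, Dup-C and Dup-L, lie in the Sox9-Kcnj region of chromosome 11, ΔBor removes a domain boundary of that region, and Dup-LΔBor carries the Dup-L duplication together with the boundary deletion. No group carries a designed change on chromosome 12. Zygosity is labelled for ΔBor alone, and the strain, the parent that passed on an allele, the limb that was taken and whether replicates were separate embryos are not labelled for any group. A p-value here thus reflects only how these libraries varied, and part of that variation may be technical.

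Total counts ran from 34486256 to 53711742 per library. All 10 limb mesenchyme markers examined were tested, with Prrx1 between 471 and 916 CPM (counts scaled to library size) in every library. Pitx1, a hindlimb regulator, was below 2 CPM in Dup-L 1, Dup-L 2, WT 2 and WT 4 and at 39.9 CPM or more in the other 11 libraries. Xist was at 2265 CPM or more in WT 1, Dup-C 1 and ΔBor hom and at 1.34 CPM or less elsewhere. The numbers in the column headers fall in 2 ranges, here called batches. WT 1, WT 2, Dup-C, Dup-L and ΔBor are in the first batch, and WT 3, WT 4 and Dup-LΔBor in the second. The headers of the 4 Dup-LΔBor columns give the genotype as Sox9DupLacZDel, a name that joins a duplication and a deletion and is not used in the labels, so their group rests on that reading. R4 and R5 carry the same header number, yet their counts differed by more than sampling noise (chi-square of 25.6 per degree of freedom over 17624 genes, against 5.94 to 33.3 for the other pairs of the group), and they were counted as 2 libraries.

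Several sequences of the cluster help to place the counts. The window from 250 bases before to 50 bases after the annotated start of Meg3 (chr12:109540746-109541045, plus strand, GRCm38.p6, from RefSeq) is shown because Meg3 is the first gene of the run of maternal RNAs. Capitals mark, in this order, a CCAAT box (CCAAT), a cAMP response element (TGACGTCA) and a TATA box (TATAAA), whose matches on the plus and minus strands overlap.
Meg3 start window: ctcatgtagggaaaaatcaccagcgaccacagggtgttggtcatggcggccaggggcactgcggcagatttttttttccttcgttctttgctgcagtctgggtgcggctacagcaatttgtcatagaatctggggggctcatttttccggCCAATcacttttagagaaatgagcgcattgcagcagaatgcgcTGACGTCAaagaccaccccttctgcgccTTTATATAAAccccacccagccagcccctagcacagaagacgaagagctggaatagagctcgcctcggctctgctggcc
The CCAAT box begins 100 bases, the cAMP response element 57 bases and the plus-strand TATA box 25 bases before the start. Searched on both strands of 32851 windows of the same length, these letters occurred in 37.4%, 1.79% and 13.6%. A start window was found for 5 of the 9 genes. The windows of Rian, Mirg, Dlk1 and Dio3 held no cAMP response element, the Dio3 window held a TATA and a CCAAT box, and the Mirg window held a CCAAT box. RefSeq has another Meg3 start downstream, and its window (chr12:109545148-109545447) held none of the 3 motifs and 1 CpG pair. The window shown had 13 CpG pairs, against a median of 7 over all windows.

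DQ267102 is a box C/D snoRNA, a class of guide RNAs processed from introns, and DQ267100 is a neighbour of the same class that is no member of the chosen set. Both are shown because both were at 0 counts in Dup-LΔBor and because they resemble each other. Capitals mark the box C (TGATGA) and box D (CTGA) motifs in the 72-base GENCODE M21 transcripts, on the plus strand.
DQ267102: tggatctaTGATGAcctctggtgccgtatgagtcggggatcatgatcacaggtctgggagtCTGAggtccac
DQ267100: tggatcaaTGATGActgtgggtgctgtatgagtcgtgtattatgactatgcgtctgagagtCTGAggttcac
Set side by side without gaps, 56 of their 72 bases were identical. Whether reads were shared between them was not tested.

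Mir377 and Mir3072 were the only miRNA rows of the cluster with enough counts to be tested, so their mature strands are shown, from RefSeq, with the seed (bases 2 to 8) in capitals.
miR-377-5p: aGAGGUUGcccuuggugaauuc
miR-377-3p: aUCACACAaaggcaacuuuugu
miR-3072-5p: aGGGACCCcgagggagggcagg
miR-3072-3p: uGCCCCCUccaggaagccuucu
The 4 seeds differ from each other. Poly(A) libraries do not capture mature miRNAs of this size, so counts on these rows are reads of longer transcripts that cross the hairpin.

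Meg3, a long noncoding RNA known for its growth-restraining role, was abundant in every library outside Dup-LΔBor. Its level was 253, 695, 296 and 761 CPM in WT 1 to 4, a mean of 501 ± 264 (SD, n = 4). It was 372 and 215 CPM in Dup-C, 547 and 555 in Dup-L, 300 and 372 in ΔBor het, and 227 CPM in ΔBor hom. In Dup-LΔBor R2 to R5 it was 0.15, 0.19, 0.10 and 0.29 CPM, from 7, 7, 5 and 11 counts. The mutant libraries did not overlap any other, and the lowest of the other 11 stood 736-fold above the highest of these 4. The Dup-LΔBor mean was 0.0362% of the WT mean, a log2 fold change of -11.46 (SE 0.58).

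Rian, the transcript that hosts the cluster's box C/D snoRNAs, was at 283, 518, 417 and 723 CPM in WT 1 to 4. In Dup-LΔBor R2 to R5 it was at 5.61, 4.48, 5.29 and 2.92 CPM, or 0.943% of the WT mean. It was at 337 and 286 CPM in Dup-C, 628 and 667 in Dup-L, 406 and 392 in ΔBor het, and 320 CPM in ΔBor hom. The Rian row thus kept more of its counts than Meg3: 807 remained in the 4 Dup-LΔBor libraries, against 30 of Meg3. The other 11 libraries had 209087 and 196312 counts. The kit does not mark strand, and in RefSeq, though not in GENCODE M21, the span of Rtl1 overlaps those of Rian and Meg3 on the opposite strand. How many of the remaining counts are reads of Rtl1 was not tested. Per length, Rian exceeded Meg3 by 1.80 ± 0.39 on the scale of log2 FPKM, the authors' fragments per kilobase scaled to library size, with 0.01 added, in WT (SD, n = 4) and by 5.46 ± 0.71 in Dup-LΔBor (n = 4). The ratio ran from 1.34 to 2.26 over the 11 other libraries and from 4.42 to 5.94 over these 4. Meg3 FPKM in Dup-LΔBor was 0.01 or 0.02, the last decimal the authors kept. The added 0.01 thus narrows these ratios, and the rounding can move them either way. From counts with 0.5 added and not scaled to length, the log2 ratio was 0.04 ± 0.39 in WT and 4.62 ± 1.01 in Dup-LΔBor, and it ran from 3.26 to 5.57 over these 4 libraries.

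Mirg, the transcript that hosts the distal miRNA group, was at 11.2, 25.2, 17.3 and 32.3 CPM in WT 1 to 4. In Dup-LΔBor R2 to R5 it was at 0.27, 0.27, 0.35 and 0.16 CPM, from 13, 10, 17 and 6 counts. It was at 14.6 and 10.6 CPM in Dup-C, 19.2 and 21.1 in Dup-L, 13.7 and 16.0 in ΔBor het, and 9.75 CPM in ΔBor hom. The lowest library outside Dup-LΔBor was 28.2-fold above the highest Dup-LΔBor library.

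The 3 snoRNA entries need care about what was counted. What part of their counts comes from mature snoRNAs in these poly(A) libraries was not tested. The length implied by counts and FPKM was 3916 bases for AF357425_gene, far longer than the 73 bases of the snoRNA AF357425, whose own row was at 0 in every library. AF357425_gene therefore covers a longer unit, and it was at 3.86, 7.68, 4.49 and 7.78 CPM in WT 1 to 4 against 0.08, 0.05, 0.04 and 0.08 CPM in Dup-LΔBor R2 to R5. The implied length of AF357359 was 34 bases, which inflates its FPKM (189 to 980 outside Dup-LΔBor), so its level is given only in CPM. AF357359 was at 7.78, 16.1, 6.40 and 15.7 CPM in WT and had 11, 0, 4 and 0 counts in Dup-LΔBor R2 to R5. Its log2 fold change against WT was -7.00, and -8.36 without R2. DQ267102, shown above, was the least abundant of the chosen maternal RNAs, at 0.33, 0.75, 0.29 and 0.86 CPM in WT. All 4 Dup-LΔBor libraries had 0 counts of it, so WT was at least 32.0-fold higher, taking 3 counts over the group as the floor, which covers counting error only.

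**Figure D1:**
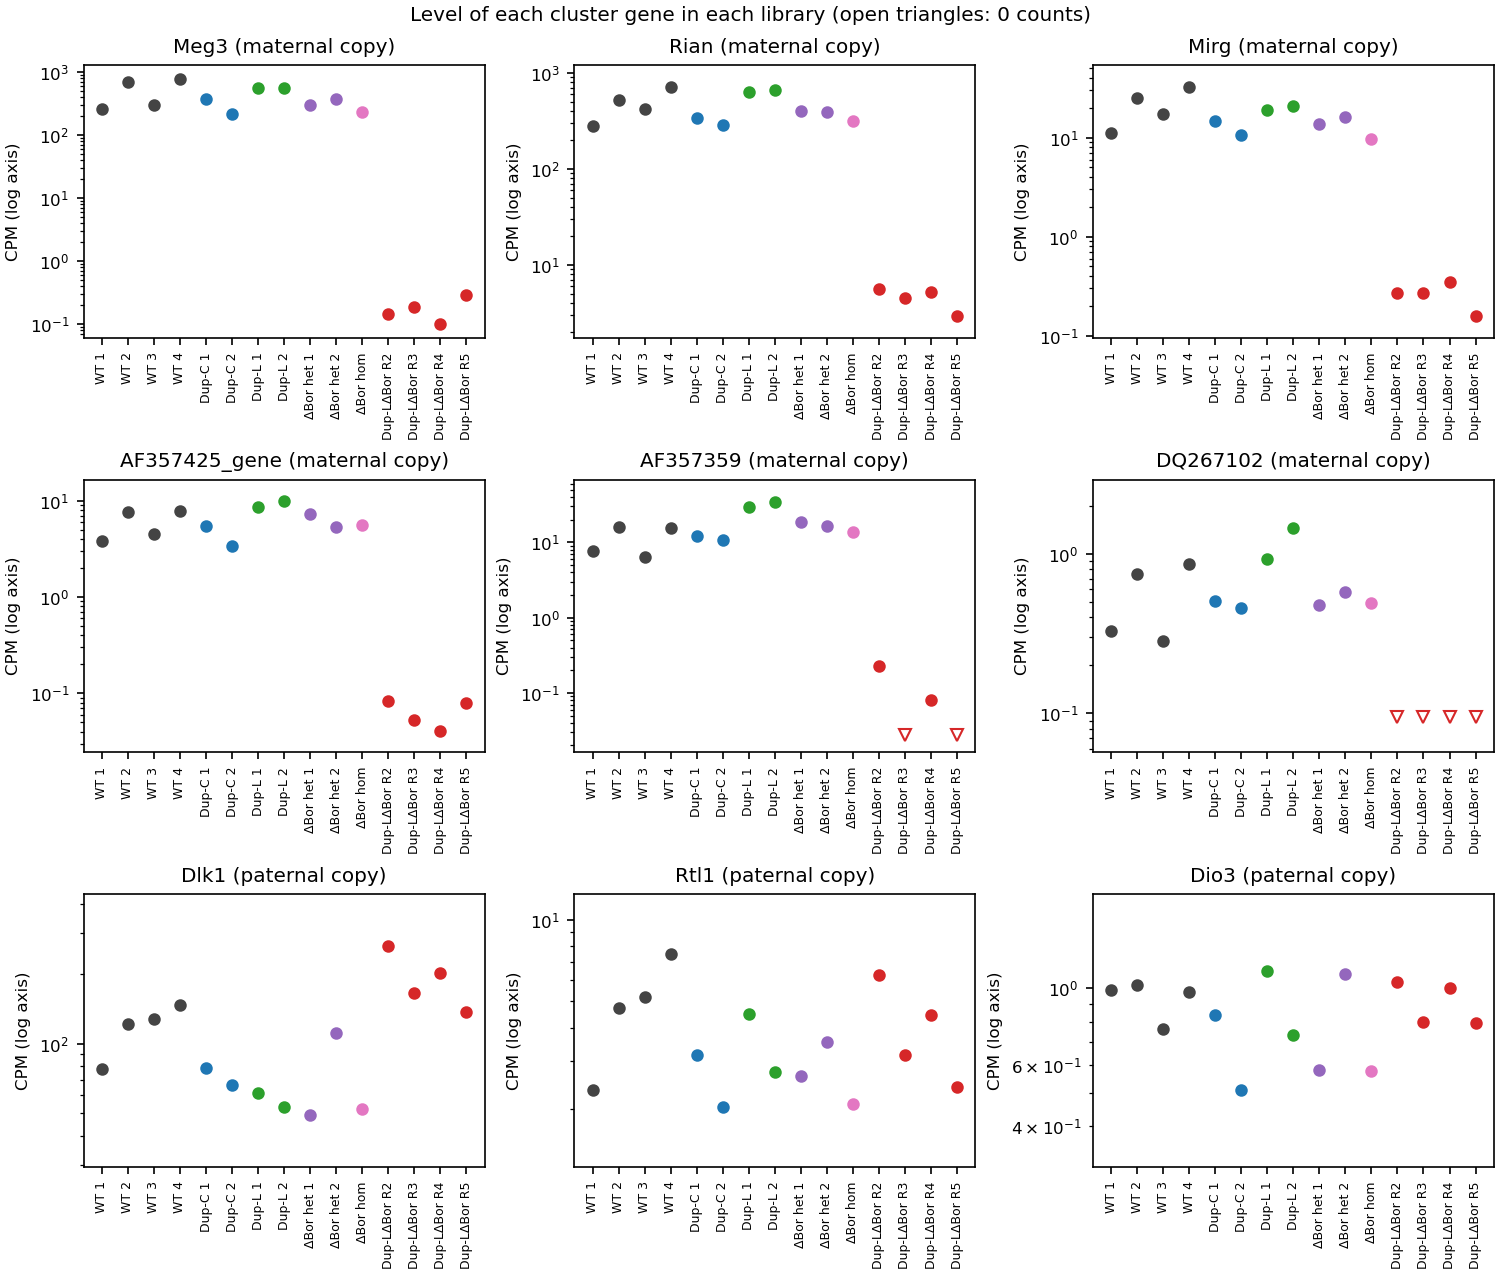
Level of each of the 9 genes in each of the 15 libraries, in CPM on log axes whose ranges differ between panels; colours mark the groups and open triangles mark 0 counts, drawn below the lowest value. In the 6 maternal panels the 4 Dup-LΔBor points lie below all others, with Meg3 at 0.29 CPM or less against 215 CPM or more, while the 3 paternal panels overlap between groups.

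Over the 9 genes, all 4 Dup-LΔBor libraries were below all 11 others for 6, the 6 maternal RNAs, where 3.43% of all genes tested showed this pattern. They were above all 11 others for none of the 9, where 4.48% of all genes did. In the fit of Dup-LΔBor against WT 3.85% of all genes passed an adjusted p of 0.05 (edgeR, Benjamini-Hochberg), and 1.60% were lower. The log2 fold changes of the maternal RNAs in that contrast ran from -11.46 for Meg3 to -6.32 for Mirg, with a median of -6.86 against -0.01 over all genes. This is the contrast that chose them, so the background shares are given beside it and nothing is read from them.

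Dlk1, a transmembrane ligand of the Notch family that holds back differentiation, was the most abundant paternal gene in Dup-LΔBor, at 266, 166, 203 and 138 CPM in R2 to R5. WT 1 to 4 were at 77.5, 122, 128 and 146 CPM. The groups overlapped at R5, which was below WT 4, and the Dup-LΔBor mean was 163% of the WT mean, a log2 fold change of 0.71 (SE 0.27). Dlk1 was at 78.6 and 66.5 CPM in Dup-C, 61.4 and 53.5 in Dup-L, 49.1 and 111 in ΔBor het, and 52.3 CPM in ΔBor hom. The order of the group means, from high to low, was Dup-LΔBor, WT, ΔBor het, Dup-C, Dup-L and ΔBor hom, and the first 3 each overlapped their next neighbour.

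Skeletal muscle markers varied in the same order as Dlk1 in some groups and not in others. Their summed level, over 14 markers of which Myh8 was at 0 everywhere, was 1190, 600, 1093 and 495 CPM in Dup-LΔBor R2 to R5, the same order as Dlk1. In WT 1 to 4 it was 503, 867, 721 and 1075 CPM, with the same lowest and highest libraries as Dlk1 but WT 2 and WT 3 in the opposite order. The order was the same in ΔBor het and opposite in Dup-L (506 and 642 CPM) and Dup-C (499 and 502 CPM). The 2 groups overlapped in this sum, and it ran from 351 to 1075 CPM over the 11 other libraries. In bulk samples more cells of a type and more RNA per cell cannot be told apart, and the part of muscle in the Dlk1 differences was not tested.

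Rtl1, a gene derived from a retrotransposon Gag-Pol and needed in placental vessels, was at 6.28, 3.18, 4.44 and 2.41 CPM in Dup-LΔBor R2 to R5 and at 2.36, 4.72, 5.18 and 7.47 CPM in WT 1 to 4. It was between 2.04 and 4.50 CPM in the other 7 libraries. The groups overlapped throughout, with a log2 fold change of -0.26 (SE 0.34). In both WT and Dup-LΔBor the order of the libraries by Rtl1 was the order by Dlk1. Reads were made with a kit that does not mark strand, so sense and antisense reads cannot be told apart where genes overlap. In RefSeq the span of Rtl1 overlaps those of Meg3 and Rian on the opposite strand. In GENCODE M21 it does not, and the annotation used for the counts is not known. The 7 miRNA rows that lie inside Rtl1, among them Mir127, Mir433 and Mir434, were at 0 counts in every library. How reads over overlapping rows were counted is not known, so these zeros cannot be read as absence of RNA there.

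Dio3, the deiodinase that inactivates thyroid hormone, was the lowest of the 3, at 1.04, 0.80, 1.0 and 0.80 CPM in Dup-LΔBor R2 to R5 and 0.98, 1.02, 0.76 and 0.97 CPM in WT. It ran from 0.51 to 1.12 CPM over the other 7 libraries, and all 6 groups overlapped their neighbours in the order of means. Its log2 fold change in Dup-LΔBor against WT was -0.03 (SE 0.24). Dio3os, its antisense neighbour, had 62 counts in Dup-LΔBor and 161 in the other 11 libraries, and the 4 Dup-LΔBor libraries hold 26.5% of all counts.

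Set against the paternal genes library by library, on the log2 FPKM scale with 0.01 added, the maternal RNAs formed separate ranges. Meg3 relative to Dlk1 was 0.21, 1.02, -0.29 and 0.88 in WT 1 to 4 and -11.22, -10.55, -10.84 and -9.68 in Dup-LΔBor R2 to R5. It was 0.75 and 0.19 in Dup-C, 1.66 and 1.88 in Dup-L, 1.11 and 0.25 in ΔBor het and 0.62 in ΔBor hom. Per length, Meg3 was thus near or above Dlk1 in all 11 libraries outside Dup-LΔBor, and the Dup-L libraries had the highest ratios among them. Rian relative to Dlk1 ran from 1.97 to 3.91 over the 11 libraries and from -5.28 to -4.94 over the 4. Mirg relative to Dlk1 ran from -2.77 to -1.22 and from -9.64 to -8.84.

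Against Rtl1 and Dio3, which were low in every library, the shift had a like size but other end points. Meg3 relative to Rtl1 was 5.49 ± 0.57 in WT (SD, n = 4) and -4.59 ± 0.82 in Dup-LΔBor (n = 4). Rian relative to Rtl1 was 7.30 ± 0.24 and 0.87 ± 0.26, so Rian still exceeded Rtl1 per length as the authors scaled it. Rian relative to Dio3 was 7.82 ± 0.58 and 1.19 ± 0.29. Mirg relative to Rtl1 was 2.62 ± 0.28 and -3.19 ± 0.44. From counts with 0.5 added and not scaled to length, Rian relative to Rtl1 was 0.21 ± 0.27 in Dup-LΔBor, with R2 at -0.16. The length implied for Rian, 4614 bases, is shorter than its longest GENCODE transcript of 8089 bases.

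**Figure D2:**
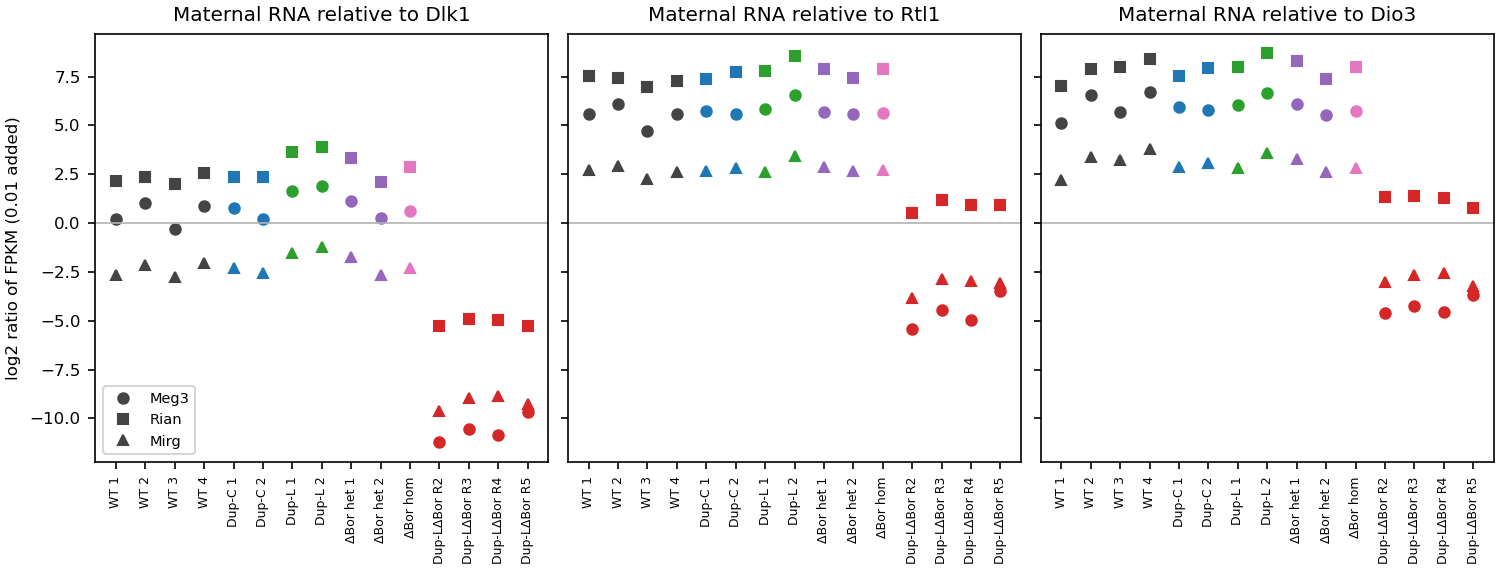
Log2 ratio of FPKM (0.01 added) of Meg3 (circles), Rian (squares) and Mirg (triangles) to Dlk1, Rtl1 and Dio3 in each library, with colours for the groups and a line at equal FPKM. In each panel and for each RNA, the 4 Dup-LΔBor points lie below the 11 others, and against Dlk1 Meg3 runs from -0.29 to 1.88 outside Dup-LΔBor and from -11.22 to -9.68 within it.

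Dup-LΔBor against Dup-L shares its mutant libraries with the choosing contrast and is likewise given with no test of these genes. Here 43.6% of all genes passed the threshold and 22.1% were lower. The log2 fold change was -11.60 for Meg3, -7.13 for Rian, -6.23 for Mirg, -7.12 for AF357425_gene and -8.48 for AF357359. The AF357359 value rests on R2, which held 11 of its 15 counts in Dup-LΔBor, and was -9.825 without it. DQ267102 had 0 counts against 0.93 and 1.46 CPM in Dup-L 1 and 2. For the paternal genes it was 1.75 for Dlk1, 0.18 for Rtl1 and -0.02 for Dio3, and Dlk1 did not overlap between the groups. With the batch in the model Rtl1 was at -0.65, and without Dup-L 1 Dio3 was at 0.32. These 2 groups lie in different batches and on different sides of Pitx1, which cannot be told apart from the genotype.

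The other rows of the cluster followed the position in the run. The table holds 78 rows from Dlk1 to Dio3, of which 69 are no members and 29 of those were at 0 in every library. The 66 non-member rows between Meg3 and Mir3072 had 1291 counts in the 11 other libraries and 11 in the 4 of Dup-LΔBor. For the 61 miRNA rows the counts were 706 and 10, and for the 5 other snoRNA rows 585 and 1. Among the latter, DQ267100 had 241 and 0 counts, AF357426 had 160 and 0, and AF357355 had 151 and 1. Mir377 had 115 and 0 counts, and Mir3072, the last of the run, 257 and 3.

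In Dup-LΔBor against WT, the genes that flank the cluster bound this run. Of the 10 tested genes before Dlk1, 1 rose in Dup-LΔBor against WT and none fell, and of the 10 after Dio3 none passed the threshold. The median log2 fold change was 0.05 in either set, and 3.85% of all genes passed in this contrast. The gene that rose was Degs2, a sphingolipid hydroxylase gene, at 0.60 (edgeR adjusted p = 0.029). It was between 25.5 and 28.3 CPM in the 4 Dup-LΔBor libraries and between 14.2 and 24.7 CPM in WT. The Degs2 call was lost within the second batch (0.41, adjusted p = 0.259) and when any Dup-LΔBor library, WT 1 or WT 2 was left out (adjusted p from 0.0549 to 0.0735). Among the non-passing genes, Begain, nearest to Dlk1, was at 0.07, and Ppp2r5c, nearest to Dio3, at -0.10. In Dup-LΔBor against Dup-L, 7 of the 10 genes before Dlk1 rose and 1 fell (median 0.60). Of the 10 after Dio3, 4 rose and 2 fell (median 0.26), where 43.6% of all genes passed.

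**Figure D3:**
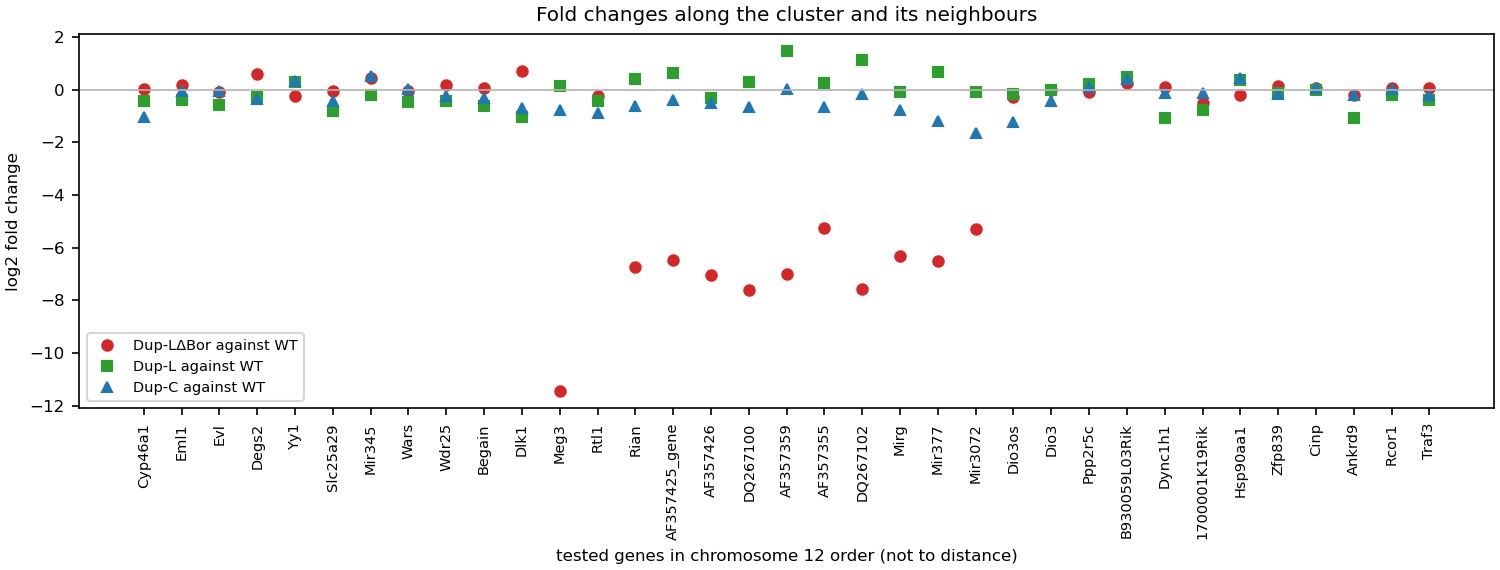
Log2 fold change of each tested gene from Cyp46a1 to Traf3 in chromosome order, evenly spaced and not to distance, for Dup-LΔBor (circles), Dup-L (squares) and Dup-C (triangles), each against the same 4 WT libraries. In Dup-LΔBor the genes from Meg3 to Mir3072 lie between -11.46 and -5.25, except Rtl1 at -0.26, and the genes on both sides lie near 0.

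In the other genotypes the mutant libraries did not choose the genes, but the 4 WT libraries did, and these comparisons share them. A choice for genes high in WT relative to Dup-LΔBor favours lower values against WT for the maternal RNAs, so the p-values against WT are not independent of it. Dup-C against WT had no member past the threshold (edgeR, adjusted over all 17655 genes), where 0.00566% of all genes passed, 2933 genes had an unadjusted p under 0.05, and DESeq2 called no member either. Meg3 was at -0.77 (SE 0.41, adjusted p = 0.359), Rian at -0.64 (adjusted p = 0.299), Mirg at -0.77 (adjusted p = 0.268) and Dlk1 at -0.71 (adjusted p = 0.32). Without WT 1, Mirg (-0.98, adjusted p = 0.0222) and Rian (-0.83, adjusted p = 0.0394) fell in Dup-C, in a setting where 1640 of all genes passed. That setting keeps WT 2 and WT 4, both low in Pitx1, beside WT 3.

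Dup-L against WT had 2 members past the threshold, in a comparison where 32.4% of all genes passed. AF357359 rose by 1.47 (SE 0.37, edgeR adjusted p = 0.00967), from 11.5 CPM in WT to 29.8 and 33.9 CPM in Dup-L, above all 4 WT libraries. Dlk1 was at -1.04 (SE 0.35, adjusted p = 0.0373), and its 61.4 and 53.5 CPM lay below all 4 WT libraries. DQ267102 at 1.12 (adjusted p = 0.0597) and AF357425_gene at 0.64 (adjusted p = 0.081) did not pass, nor did Meg3 at 0.14 (adjusted p = 0.825), Rian at 0.42 (adjusted p = 0.283) or Mirg at -0.09 (adjusted p = 0.853).

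Both Dup-L calls depended on single libraries and settings. The Dlk1 call was lost in 10 of 16 alternatives, among them those without Dup-L 1 (adjusted p = 0.12), Dup-L 2 (0.212), WT 2 (0.0581), WT 3 (0.0746) or WT 4 (0.0746), within the first batch (-0.82, adjusted p = 0.174), when batch was fitted (-0.79, adjusted p = 0.154) and with GC and length offsets (-0.76, adjusted p = 0.159). The AF357359 call was lost without Dup-L 2 (1.39, adjusted p = 0.0899) and in limma on FPKM. Without WT 2, AF357425_gene (0.81, adjusted p = 0.0371) and DQ267102 (1.34, adjusted p = 0.0402) rose as well. Without WT 4, Rian rose too (0.68, adjusted p = 0.0362), beside AF357425_gene (0.80, adjusted p = 0.0369) and DQ267102 (1.39, adjusted p = 0.027).

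ΔBor het against WT had no member past the threshold in edgeR or DESeq2, where 4.03% of all genes passed and 4573 genes had an unadjusted p under 0.05. Meg3 was at -0.58 (SE 0.41, edgeR adjusted p = 0.4), Mirg at -0.53 (adjusted p = 0.302) and Dlk1 at -0.56 (adjusted p = 0.315). The 2 libraries differed in Dlk1, with 49.1 and 111 CPM, and in summed muscle markers, with 447 and 709 CPM. Without WT 1, Mirg fell by 0.75 on the log2 scale (adjusted p = 0.0369), in a setting where 2490 of all genes passed. Without ΔBor het 2, which leaves 1 mutant library assumed to vary like the other groups, Dlk1 was at -1.27 (adjusted p = 0.0496) and 1929 genes passed.

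ΔBor hom against WT, with 1 mutant library assumed to vary like the other groups, had no member past the threshold in edgeR, where 1.27% of all genes passed and 4697 had an unadjusted p under 0.05. Mirg was at -1.14 (SE 0.43, adjusted p = 0.118), Meg3 at -1.14 (adjusted p = 0.216) and Dlk1 at -1.18 (adjusted p = 0.135). Mirg passed in DESeq2 (-1.14) and in edgeR without WT 1 (-1.35). In both settings more of all genes passed than in edgeR with all libraries. The library had the lowest Mirg level outside Dup-LΔBor, 9.75 CPM, and the lowest muscle marker sum of all, 351 CPM.

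Dup-C against Dup-L contrasts 4 libraries, none of which took part in choosing the genes, with the spread estimated over all 15. There 15.1% of all genes passed and 5.36% were lower, and 3 of the 9 members passed, all lower in Dup-C. These 3 are Rian and snoRNA entries that may hold reads of the same transcripts, so they need not be independent. AF357359 was lower by a log2 fold change of -1.47 (SE 0.45, edgeR adjusted p = 0.0458), with 12.1 and 10.9 CPM in Dup-C against 29.8 and 33.9 CPM in Dup-L. AF357425_gene was at -1.05 (SE 0.32, adjusted p = 0.0414), with 5.50 and 3.41 CPM against 8.64 and 9.91 CPM. Rian was at -1.06 (SE 0.33, adjusted p = 0.05, under the threshold before rounding), with 337 and 286 CPM against 628 and 667 CPM.

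The remaining maternal RNAs had the same sign without passing, Meg3 at -0.91 (adjusted p = 0.199), Mirg at -0.68 (adjusted p = 0.201) and DQ267102 at -1.30 (adjusted p = 0.103), and Dlk1 was at 0.34 (adjusted p = 0.575). None of the 3 calls was kept when Dup-C 1, Dup-C 2, Dup-L 1 or Dup-L 2 was left out, or with GC and length offsets. With any of these libraries left out, no gene of the whole table passed in edgeR, and 3577 to 4395 genes had an unadjusted p under 0.05. The offsets moved Rian to -0.70 (adjusted p = 0.304), while AF357359 and AF357425_gene have no GC value and kept their fold changes with an adjusted p of 0.0829. The Dup-L libraries were low and the Dup-C libraries high in Pitx1, so limb type and genotype cannot be told apart here.

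Outside Dup-LΔBor, the level of the maternal RNAs followed the Pitx1 side of the library. In the 4 libraries low in Pitx1, Meg3 was between 547 and 761 CPM, and in the 7 others between 215 and 372 CPM. Rian was between 518 and 723 CPM against 283 to 417 CPM, and Mirg between 19.2 and 32.3 CPM against 9.75 to 17.3 CPM. For AF357425_gene and DQ267102 the ranges were separate as well, which makes 5 of the 9 members, where 3.90% of all genes had the 4 libraries above the 7 others. Rows of this run may share transcripts, so these 5 need not be independent. AF357359, Dlk1, Rtl1 and Dio3 overlapped. This split was chosen after the data were seen, and 2 of the 4 low libraries are WT 2 and WT 4 and the other 2 are Dup-L, so it crosses the genotypes only in WT. Within WT, Meg3 was 695 and 761 CPM in the low and 253 and 296 CPM in the high libraries, in each batch 1 of each kind.

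**Figure D4:**
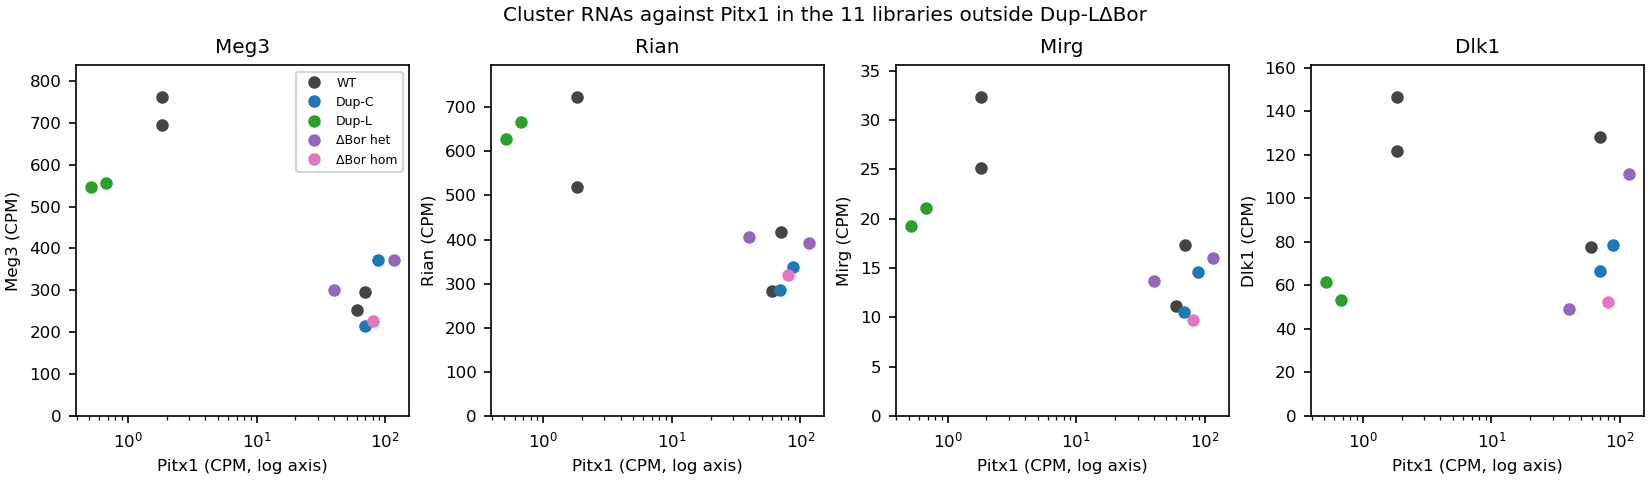
Meg3, Rian, Mirg and Dlk1 in CPM on linear axes from 0, against Pitx1 in CPM on a log axis, in the 11 libraries outside Dup-LΔBor, coloured by group. For Meg3, Rian and Mirg the 4 libraries below 2 CPM of Pitx1 lie above the 7 others, and for Dlk1 the 2 sets overlap, between 53.5 and 146 CPM and between 49.1 and 128 CPM.

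This split bears on the comparisons with WT. All 4 Dup-LΔBor libraries were high in Pitx1. Against WT 1 and WT 3 alone, the WT libraries on the same side, the Meg3 log2 fold change was -10.61 and that of Dlk1 0.90, an alternative added after the data were seen. Against WT 2 and WT 4 alone, the low pair, Dup-L showed lower Mirg (-0.52, adjusted p = 0.0442) beside the Dlk1 and AF357359 calls. In that setting 4808 of all genes passed. In the same alternative Dup-C and both ΔBor groups, set against WT 1 and WT 3, had no member past the threshold.

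The genes whose pattern over the 15 libraries was most like the mean of Meg3, Rian and Mirg, by Pearson correlation of log2 CPM, were 1700048O20Rik of chromosome 9 (r = 0.964), Slfn9 (0.938), Polh (0.932), Nsg2 (0.931) and the cluster snoRNA AF357355 (0.927). Over the 11 libraries outside Dup-LΔBor alone, r was -0.24 for 1700048O20Rik, 0.592 for Slfn9, 0.399 for Polh, 0.695 for Nsg2 and 0.399 for AF357355. 1700048O20Rik was between 0.668 and 1.01 CPM in Dup-LΔBor and between 7.64 and 17.0 CPM in the other 11 libraries. In a ranking of all tested genes by the gap between the lowest of the 11 and the highest of the 4, the members held ranks 1 to 5 and 11. The maternal RNAs were chosen for low levels in these 4 libraries, so nothing is read from their ranks. The non-members next in rank were 1700048O20Rik, the X-linked family members Xlr3b, Xlr3a and Xlr3c, whose near-identical copies can share reads, C130046K22Rik, and the fetal liver gene Afp.

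Some liver markers were also lower in Dup-LΔBor. Of 5 tested, 2 fell against WT, where 1.60% of all genes did: Afp at -5.24 (edgeR adjusted p = 0.0456) and Apoa1 at -1.67 (adjusted p = 0.0268). Neither passed within the second batch (Afp -4.26, adjusted p = 0.0687, Apoa1 -1.33, adjusted p = 0.148), or without any Dup-LΔBor library or WT 1, and Afp was also lost without WT 2. The sum of the 6 markers was between 0.583 and 1.95 CPM in Dup-LΔBor, 2.06 to 11.9 CPM in WT and 1.76 to 15.0 CPM over the 11 other libraries. Afp was also at 0.47 CPM in ΔBor hom, 0.53 CPM in ΔBor het 1 and 0.50 CPM in WT 4, where Meg3 was at 227, 300 and 761 CPM. The part of other tissue in these differences was not tested.

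Factors that set or read imprints were mostly within the spread. Of 22 tested regulators, 1 rose in Dup-LΔBor against WT and none fell: Tet2, a 5-methylcytosine oxidase, was at 0.50 (edgeR adjusted p = 0.0417), a call lost within the second batch (0.34, adjusted p = 0.252) and without any Dup-LΔBor library, WT 1 or WT 2. The median of the list was -0.05, and 3.85% of all genes passed in this contrast. The maintenance methyltransferase Dnmt1 was at -0.06, the imprint-protecting zinc finger gene Zfp57 at 0.31 (adjusted p = 0.222) and the Polycomb methyltransferase Ezh2 at 0.06, none past the threshold. In Dup-L against WT, 3 rose and 3 fell, among them Suz12 at 0.65 (adjusted p = 0.0123) and Uhrf1 at -0.75 (adjusted p = 0.00333), where 32.4% of all genes passed. With GC and length offsets neither Suz12 (0.22, adjusted p = 0.375) nor Uhrf1 (-0.51, adjusted p = 0.065) passed, and Suz12 did not pass within the first batch (0.37, adjusted p = 0.134) or without Dup-L 2 (adjusted p = 0.122).

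Imprinted genes listed from elsewhere were read in Dup-LΔBor against WT. The maternal RNAs of the cluster were chosen on this contrast, so fold changes are not compared with theirs. The lists, of 18 and 25 genes, are a selection. In Dup-LΔBor against WT 3.85% of all genes passed, and 397 of the 17655 tested were higher. Of 17 listed and tested genes expressed from the maternal copy, 1 rose in this contrast, Slc22a18 at 0.87 (edgeR adjusted p = 0.0421), and none fell. Of 22 expressed from the paternal copy, 4 rose and none fell: Mcts2 at 0.78 (adjusted p = 0.00575), the antisense RNA Kcnq1ot1 at 0.74 (adjusted p = 0.02), the fetal growth factor gene Igf2 at 0.73 (adjusted p = 0.00731) and Impact at 0.36 (adjusted p = 0.0329). Igf2 was between 3973 and 5600 CPM in Dup-LΔBor and between 2439 and 3164 CPM in the other 11 libraries, and it passed under all 17 alternatives run. Within the second batch Igf2 was at 0.88 (adjusted p = 0.0358) and Kcnq1ot1 at 0.90 (adjusted p = 0.0107), while Mcts2 (0.61, adjusted p = 0.0603), Slc22a18 (1.0, adjusted p = 0.126) and Impact (0.24, adjusted p = 0.261) did not pass. Slc22a18 and Impact were also lost without any Dup-LΔBor library, without WT 1 and without WT 3 or WT 2 respectively, and Kcnq1ot1 without R3 (adjusted p = 0.0568) or WT 2 (adjusted p = 0.0581). The list medians were 0.06 and 0.01, beside -0.01 over all genes.

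The pathways in which the paternal genes act were read against the 3.85% of all genes that passed in Dup-LΔBor against WT. Of 16 tested Notch pathway genes, in which Dlk1 is a noncanonical ligand, none passed in edgeR, with Hes5, a Notch target, at -0.87 (adjusted p = 0.378). Of 8 tested thyroid hormone genes, beside Dio3, none passed, with Hr at -0.40 (adjusted p = 0.18). Of 7 tested genes of the Gag-derived family to which Rtl1 belongs, 1 rose, Rgag4 at 0.39 (adjusted p = 0.0363), lost within the second batch (0.31, adjusted p = 0.22) and without any Dup-LΔBor library, WT 1 or WT 2. In Dup-L against WT, where 32.4% of all genes passed, 6 of the 16 Notch pathway genes fell and 1 rose, with the receptor genes Notch1 at -1.39 (adjusted p = 0.00138) and Notch3 at -1.18 (adjusted p = 0.00138) and the ligand gene Jag2 at -1.30 (adjusted p = 0.00141). With GC and length offsets these were at -0.77 (adjusted p = 0.0142), -0.45 (adjusted p = 0.0385) and -0.51 (adjusted p = 0.0681). In Dup-C against Dup-L, where 15.1% of all genes passed, 4 of the 16 were higher in Dup-C and 1 lower.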

How the data were processed

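Poly(A) RNA was sequenced with the TruSeq RNA V2 kit, per the labels' protocols. The authors deposited raw counts per gene and FPKM values rounded to 2 decimals for the same 15 libraries; STAR, DESeq2, bedtools 2.17.0 and mm9 are named, per the submitters' processing notes. The sources used here name neither the counter nor its annotation, nor whether strand was used. The Dup-LΔBor columns are numbered R2 to R5 and could not be matched to the labels' replicates, and the ΔBor hom column carries another number than its label. The 2 fingertip samples of embryonic day 17.5 were not analysed here.

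Counts were fitted with edgeR 4.0.16 in R 4.3.3 (TMM, filterByExpr, robust quasi-likelihood F-test, two-sided, 6 groups, all 15 libraries), with Benjamini-Hochberg adjustment over 17655 genes and a threshold of 0.05. The procedure was tested on simulated data. CPM are counts over TMM-scaled totals, and 3 counts over a group served as floor. The alternatives were DESeq2 1.42.0, limma 3.58.1 on log2(FPKM + 0.1) and log2(FPKM + 1), other scaling, no filter, batch, GC and length offsets (91.4% of tested genes have values), a replicate block and leaving out libraries. Cluster genes are all named. Of each list up to 4 genes past the threshold were named by size, or the largest where none passed. Like genes were the top 5 by correlation, and up to 10 by gap. Begain, Ppp2r5c, Dnmt1, Zfp57 and Ezh2 were picked as well-known or nearest genes, after their values were seen. The genes and lists were chosen with earlier results of these data known. Sequences and order come from GENCODE M21 and RefSeq of GRCm38, another build than the counts.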

Additional observations from a re-analysis of the deposited data

Results flagged for a closer look

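The effects of Dup-C and Dup-L differed for 3 maternal RNA rows by a test of the difference itself (edgeR, Dup-C against Dup-L). Rian hosts the cluster's box C/D snoRNAs, so these 3 rows may hold reads of the same transcripts and need not be independent. The difference on the log2 scale was -1.469 for AF357359 (adjusted p = 0.0458), -1.051 for AF357425_gene (adjusted p = 0.0414) and -1.057 for Rian (adjusted p = 0.05, under the threshold before rounding), and in each case both Dup-C libraries were below both Dup-L libraries. In this comparison 15.1% of all genes passed and 5.36% were lower. No member passed when any of the 4 libraries was left out or with GC and length offsets. The Dup-L libraries were low in Pitx1 and the Dup-C libraries high, which cannot be told apart from the genotype. A search for a library far from the others of its group, over 17 groups of 4 values, found none.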

How the results depend on the processing

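In Dup-LΔBor against WT, all 6 maternal RNAs kept their sign under every alternative run, and over all of them Meg3 ran from -11.76 to -4.912, Rian from -6.952 to -5.71 and Dlk1 from 0.4921 to 0.8968. Meg3 was at -8.034 in limma on log2(FPKM + 0.1), at -4.912 on log2(FPKM + 1), where the added value compresses low levels, and at -10.61 against WT 1 and WT 3 alone. Leaving out libraries gave Meg3 values from -11.76 to -11.19. The mean log2 ratio of Meg3 to Dlk1 in Dup-LΔBor minus that in WT was -11.03 from FPKM and -11.97 from counts with 0.5 added.

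Of the 9 members, the number past the threshold in Dup-L against WT was 2, and 1 without a filter, with the batch as a term, within the first batch, with GC and length offsets or with a replicate block, and 0 to 4 with a library left out. In Dup-C against Dup-L it was 3, and 1 without a filter, 0 with offsets, 1 in limma on log2(FPKM + 0.1), 2 with a replicate block, and 0 to 0 with a library left out. It was 0 in Dup-C (0 to 2 with a library left out), ΔBor het (0 to 1) and ΔBor hom (0 to 1, and 1 in DESeq2).

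The number of all genes past the threshold moved far more. In Dup-LΔBor against WT it was 679, with 1634 in DESeq2, 70 with the batch as a term, 66 within the second batch, 1230 with offsets, 1447 against WT 1 and WT 3, and 81 to 1516 with a library left out. In Dup-LΔBor against Dup-L it was 7704, with 2298 with the batch as a term, 4781 with offsets and 4438 to 7671 with a library left out. In Dup-L it was 5719, with 3036 within the first batch, 998 with offsets, 1374 with a replicate block and 1122 to 5952 with a library left out. In Dup-C it was 1, with 23 in DESeq2, 0 within the first batch or with a block, and 1640 without WT 1. In Dup-C against Dup-L it was 2674, with 197 with offsets and 1524 with a block. In ΔBor het it was 712, with 2150 in DESeq2, 32 with the batch as a term, 55 within the first batch, 98 with offsets, 381 and 379 in limma, 37 with a block, 245 against WT 1 and WT 3, and 19 to 2490 with a library left out. In ΔBor hom it was 225, with 2197 in DESeq2, 114 without a filter, 26 with the batch as a term or within the first batch, 21 with offsets, 36 and 70 in limma, 19 against WT 1 and WT 3, and 21 to 2750 with a library left out. The cause was not tested.

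Deviations of same-numbered libraries from their group means correlated from -0.252 to 0.172. In groups of 2 libraries these deviations mirror each other, so the correlations cannot decide whether the replicate numbers mark pairs. A block could not be fitted for Dup-LΔBor, whose columns carry none of the labels' numbers, or ΔBor hom, which shares 1 number. Libraries of 1 batch alone could not be used for Dup-LΔBor against Dup-L. Depth limits Meg3 in Dup-LΔBor to 5 to 11 counts per library.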
